A study of Caenorhabditis elegans with 2 samples.

Results

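Candidate binding regions of ZAG-1 in Caenorhabditis elegans larvae were examined at 45 genes that make, move or sense neurotransmitters. The genes comprised 8 for GABA, 13 for acetylcholine, 10 for glutamate and 14 for monoamines, out of 19973 nuclear protein-coding genes. They were listed by name, and each was found in the gene models. A region was given to the gene whose protein-coding transcript start lay nearest to its summit, within 5000 bp. The data are chromatin immunoprecipitation sequencing (ChIP-seq) of eGFP-tagged ZAG-1 from whole L3 larvae, with the sexes pooled. The strain was OP83, genotype unc-119(ed3) III; wgIs83, in which wgIs83 is a transgene insertion for tagged zag-1 and the unc-119 mutation is carried by all animals. The series has 1 group of 2 biological replicates and no other condition, so no comparison between conditions was possible. Because whole larvae were used, a site occupied in few cells and a site occupied weakly in many cells cannot be told apart. The labels name no promoter for the tagged gene and no tissue.

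ZAG-1 belongs to the ZEB family of transcription factors, which carry zinc fingers and a homeodomain, and is known for its role in how neurons differentiate in worms. A neuron's transmitter is set by a small battery of genes: an enzyme that makes the transmitter, a vesicular transporter that packs it, and, in many cell types, a plasma membrane transporter or an enzyme that clears it. Receptors act in the cells that receive the signal and are either ion channels opened by the transmitter or receptors coupled to G proteins. In C. elegans, GABA and acetylcholine act on body wall muscle, glutamate carries much sensory information, and serotonin, dopamine, tyramine and octopamine modulate locomotion, feeding and egg laying.

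The authors deposited 4 lists of regions in the ce11 build that were used here. The optimal set, the regions that passed the irreproducible discovery rate (IDR) step, held 357 regions with signal scores of 33.0 to 393 and a median of 44.2. The joint list, made from both replicates together and including background, held 10005 regions with scores of 12.2 to 393 and a median of 14.7. The replicate 1 list held 30000 regions with scores of 3.59 to 194, and the replicate 2 list held 26202 regions with scores of 5.71 to 241. The score is the authors' own value for each region and is not on a common scale between lists. The 357 optimal regions were the 357 highest of the joint list, so a joint-list region outside them did not pass the IDR step. The read depth of the libraries is unknown. Intervals on shares are exact binomial (Clopper-Pearson) 95% intervals, which cover the counting of genes or regions only.

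No neurotransmitter gene was given an optimal region. The count was 0 of 45 members, which with an exact interval allows a share of up to 7.87%, against 303 of 19973 genes (1.52%). At that background share a count of 0 among 45 genes is near what all genes show. The lower-scoring joint list is therefore where the members' regions lay. In it 25 of 45 members had a region (55.6%, interval 40 to 70.4), against 30.8% of all genes. The highest member region, at the GABA synthesis gene unc-25, scored 31.4 and ranked 403, just below the lowest optimal score of 33.0. The 4 windows below show the summit base of a region in capitals, with 50 bp on either side, for the highest-scoring member region of each transmitter class, except that gar-2 stands in for a higher region of the acetylcholine class whose sequence is not shown. They are read 5′ to 3′ on the strand of the gene in ce11.
unc-25, GABA, III:12942442-12942542, plus strand, upstream of the start: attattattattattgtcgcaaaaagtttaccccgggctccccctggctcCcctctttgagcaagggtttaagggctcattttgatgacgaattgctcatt
cat-2, monoamine, II:259502-259602, plus strand, coding exon: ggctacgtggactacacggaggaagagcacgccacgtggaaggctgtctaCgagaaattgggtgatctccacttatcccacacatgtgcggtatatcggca
gar-2, acetylcholine, III:6315845-6315945, plus strand, intron: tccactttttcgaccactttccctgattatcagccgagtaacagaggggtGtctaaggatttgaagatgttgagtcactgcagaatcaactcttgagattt
glr-2, glutamate, III:7142559-7142659, minus strand, coding exon: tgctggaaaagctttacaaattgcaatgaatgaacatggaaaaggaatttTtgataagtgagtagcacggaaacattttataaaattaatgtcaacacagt
Their GC content was 43.6% at unc-25, 54.5% at cat-2, 42.6% at gar-2 and 30.7% at glr-2.

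By transmitter class, the share of genes with a joint-list region ran from 20% for glutamate to 76.9% for acetylcholine. Of the acetylcholine genes 10 of 13 had a region (76.9%, interval 46.2 to 95), and of the monoamine genes 9 of 14 (64.3%, interval 35.1 to 87.2). GABA genes had 4 of 8 (50%, interval 15.7 to 84.3) and glutamate genes 2 of 10 (20%, interval 2.52 to 55.6), against the 30.8% of all genes. The intervals of the 4 classes overlapped one another, and those of acetylcholine and monoamine genes lay above the share of all genes. The members were listed with earlier results of these data known, so this is a description and not a test. Per length of sequence, treated below, the monoamine interval (7.87 to 24.2) included the 10.1 regions per 100 kb of all genes. The acetylcholine interval per length (12 to 31.1) lay above it. Differences between classes were not tested. Acetylcholine was also the highest class in the full replicate 1 and replicate 2 lists (100% and 92.3%). It was not the highest when each replicate list was cut to as many of its highest regions as the joint list holds. With those of replicate 2 alone, the shares were 62.5% for GABA, 57.1% for monoamine, 53.8% for acetylcholine and 30.0% for glutamate genes. With those of replicate 1 alone they were 75.0% for GABA, 69.2% for acetylcholine, 64.3% for monoamine and 30.0% for glutamate genes, so GABA was the highest class without either replicate and glutamate the lowest. In the joint list the median best score among genes with a region was 20.5 for GABA, 16.5 for monoamine, 15 for acetylcholine and 14.8 for glutamate genes, each from few genes. Over the members it was 15.5, against 15.3 over all genes with a region. In this list the members were thus given regions more often, with a median best score near that of all genes. In the replicate lists the members' median was higher, at 7.78 against 6.07 in replicate 1 and 9.58 against 8.64 in replicate 2. A best score is the highest over a gene's regions. The members had more sequence nearest to their starts (median 6178 bp, against 3776 bp over all genes), and the part this plays was not tested.

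**Figure D1:**
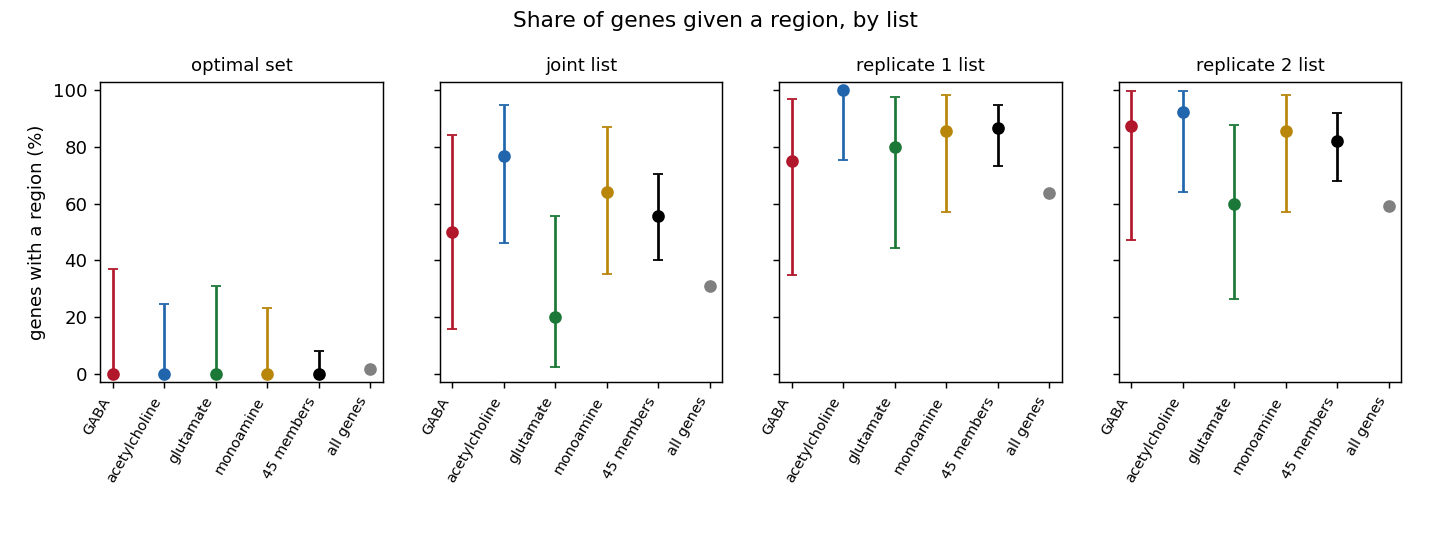
Share of genes given a region (%, vertical axis) in the optimal, joint, replicate 1 and replicate 2 lists for the 4 transmitter classes, the 45 members and all genes. Bars are exact 95% intervals, and those of all genes are narrow (30.1 to 31.4 in the joint list). In that list glutamate genes lie at 20% and acetylcholine genes at 76.9%, and the 45 members at 55.6% with all genes at 30.8%.

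Grouped by role, receptors coupled to G proteins had a joint-list region in 8 of 10 cases (80.0%, interval 44.4 to 97.5) and enzymes in 6 of 9 (66.7%, interval 29.9 to 92.5). Ion channel receptors had a region in 8 of 17 (47.1%, interval 23 to 72.2) and the genes for transport in 3 of 9 (33.3%, interval 7.49 to 70.1), against 30.8% of all genes. The transport group, which holds the vesicular and plasma membrane transporters and unc-46, was thus near the share of all genes, and the intervals for enzymes and ion channel receptors included it. The G protein-coupled receptor genes also had the most sequence nearest to their starts, with a median of 11130 bp, against 4522 bp for enzymes, 5502 bp for ion channel receptors and 4461 bp for transport genes.

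How much sequence lies nearest to a gene's start and within 5000 bp of it, called its territory here, differs between genes and bears on the chance of being given a region. The members' median territory was 6178 bp, against 3776 bp over all genes. Per 100 kb of territory the members held 14.4 joint-list regions (46 regions, exact Poisson 95% interval 10.5 to 19.2), against 10.1 over all genes (interval 9.88 to 10.3). Members and all genes were thus closer, as a ratio, per length than per gene. Per 100 kb, acetylcholine genes held 19.9 regions (interval 12 to 31.1), monoamine genes 14.4 (interval 7.87 to 24.2), GABA genes 14 (interval 6.71 to 25.7) and glutamate genes 5.33 (interval 1.10 to 15.6). Among roles, enzymes held 22.8 (interval 10.9 to 41.9), G protein-coupled receptors 17.9 (interval 11.1 to 27.4), ion channel receptors 9.82 (interval 4.90 to 17.6) and transport genes 8.45 (interval 2.30 to 21.6). These Poisson intervals take regions as independent, although gbb-1 and gar-2 held 5 each, so they may be too narrow.

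When genes were put into bands of territory, which were chosen after the data were seen, the share with a region was higher at longer territories for the members and for all genes. Below 5000 bp, 4 of 16 members had a region (25%, interval 7.27 to 52.4), against 20.8% of all genes. Between 5000 and 10000 bp, 15 of 22 members had a region (68.2%, interval 45.1 to 86.1), against 44.3% of all genes. At 10000 bp or more, 6 of 7 members had a region (85.7%, interval 42.1 to 99.6), against 75.7% of all genes. In the middle band alone the members' interval lay above the share of all genes.

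**Figure D2:**
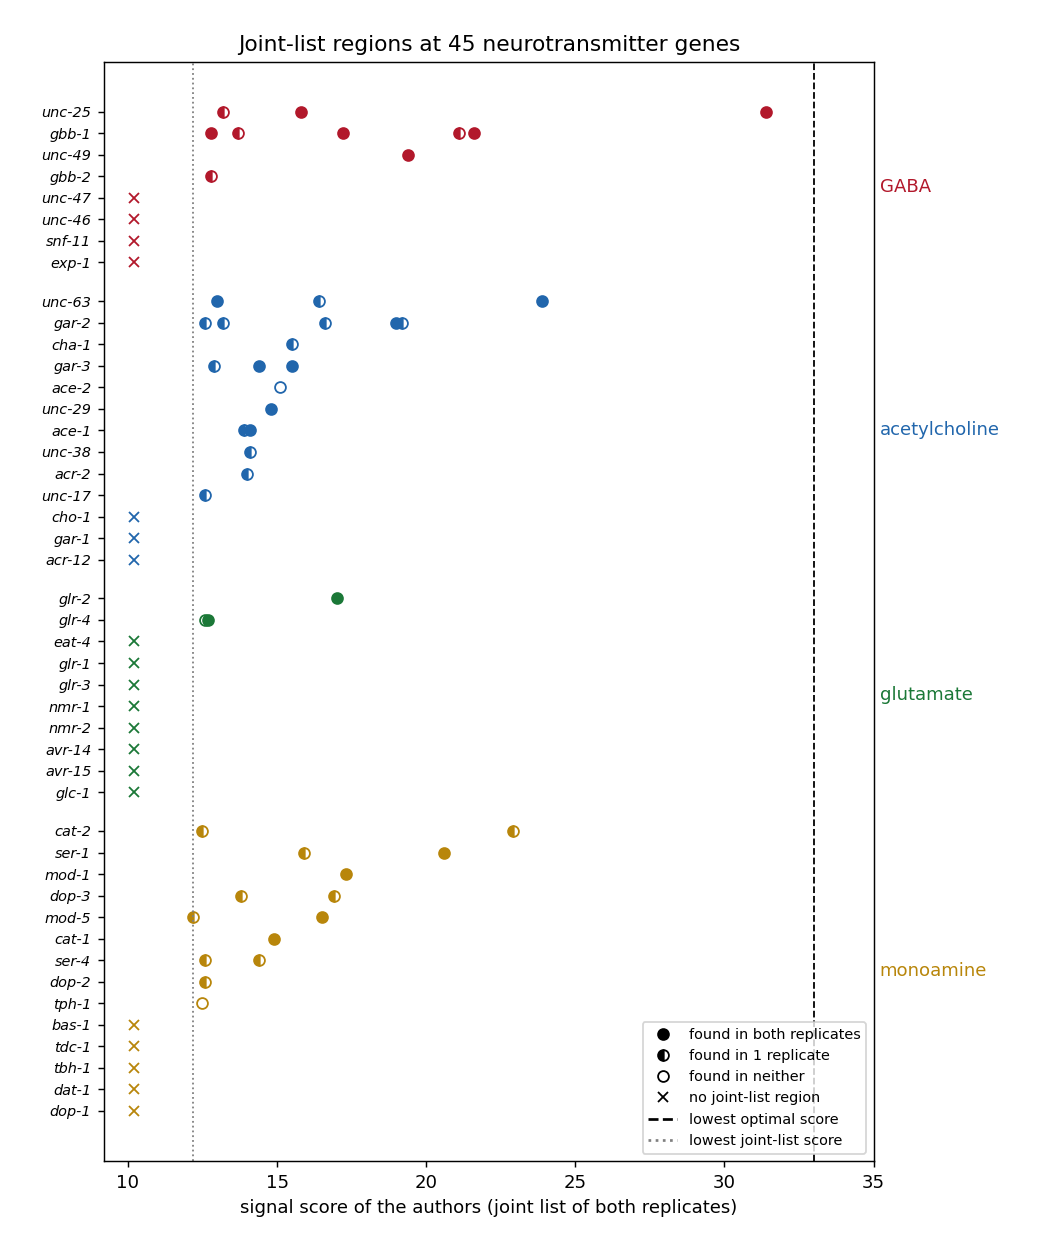
Signal score (horizontal axis, joint list) of every joint-list region given to the 45 genes, which are listed by transmitter class; the fill shows in how many replicate lists a summit lay within 100 bp, and crosses at the left mark genes with no region. All 46 regions lie left of the dashed line at 33.0, the lowest optimal score, and unc-25 comes nearest to it at 31.4.

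In the GABA class, the region at unc-25 stood above the others. unc-25 encodes glutamic acid decarboxylase, the enzyme that makes GABA, and spans III:12942651-12949883 on the plus strand (WBGene00006762). Its highest region, III:12942300-12942683, had its summit at position 12942492, 159 bp upstream of the start. That region was also present in both replicates: replicate 1 had a summit at the same base with a score of 10.4 and rank 1317 of 30000, and replicate 2 had a summit 50 bp away with a score of 19.6 and rank 479 of 26202. The deposited −log10 q-value was 1.38, the value that the optimal regions carry, and this was the case for 491 joint-list regions and for 1 of the 46 member regions. The other member regions carried lower values, from 0.91 at unc-63 down to 0.02, as at unc-17 and tph-1. Most of them lay at or below 0.23. A further unc-25 region scored 15.8 in a UTR exon of the neighbouring gene epg-3, with summits in both replicates, and another scored 13.2 in a coding exon, with a summit in replicate 2 alone. A region inside the unc-25 body with its summit at 12947922 scored 21.8 and ranked 1095, and it too had summits in both replicates. It lay 5233 bp from the nearest unc-25 start and was given to the gene Y39E4A.1, whose start was nearer.

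The vesicular transporter gene of the same neurons did not share this pattern. unc-47, which encodes the vesicular GABA transporter, had no joint-list region. Its best region scored 8.58 in replicate 1 (rank 3001) and 6.30 in replicate 2 (rank 21568), with 4 and 2 regions in the lists. unc-46, whose product sorts UNC-47 to synaptic vesicles, had 1 region in replicate 1 (score 8.69) and none in replicate 2. snf-11, the plasma membrane GABA transporter gene, had none in replicate 1 and 1 in replicate 2 (score 12.3, rank 2497). Neither gene had a joint-list region.

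GABA receptors were divided. gbb-1, a subunit of the metabotropic GABA receptor, had 5 joint-list regions with scores of 21.6, 21.1, 17.2, 13.7 and 12.8, of which 3 had summits in both replicates. The replicate 2 summit of the 21.6 region scored 5.88 (rank 24778 of 26202), close to the bottom of that list. The 21.6 and 21.1 regions lay downstream of the gene body, 4514 bp and 2215 bp from the last annotated start. gbb-2, the partner subunit, had 1 region at 12.8 in an intron, 4262 bp inside the start. The gbb-2 region had a summit in replicate 2 and no summit in replicate 1, where gbb-2 had no region at all, while its best replicate 2 region scored 14.6 and ranked 1260. unc-49, the GABA-gated chloride channel gene of body wall muscle, had 1 region 865 bp upstream of its start, scoring 19.4 and found in both replicates. Over its territory of 17718 bp, unc-49 had 11 regions in replicate 1 and 8 in replicate 2. exp-1, a GABA-gated cation channel gene, had no joint-list region, and its best regions scored 8.05 in replicate 1 and 7.06 in replicate 2.

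Acetylcholine genes had the most joint-list regions, 19 in all. cha-1 encodes choline acetyltransferase, which makes acetylcholine, and unc-17 encodes the vesicular acetylcholine transporter. The genes are read from a shared locus on chromosome IV, and their first annotated starts lie 2 bp apart, so which of the pair a region is given to can turn on 2 bp. cha-1 was given a region 95 bp inside its start that scored 15.5 (rank 4053), with a replicate 1 summit of score 11.3 and rank 910 and none in replicate 2. unc-17 was given a region 3295 bp upstream that scored 12.6 (rank 9033), also with a summit in replicate 1 alone. Support at this locus thus came from replicate 1; in the replicate 2 list unc-17 had 1 weak region (score 6.24, rank 21990) and cha-1 none. cho-1, the choline transporter gene, had no joint-list region and best scores of 7.47 in replicate 1 and 7.38 in replicate 2.

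The genes for acetylcholinesterases, which break acetylcholine down, carried low-scoring regions. ace-1 had regions at 14.1 and 13.9, the first found in both replicates and the second in replicate 2. ace-2 had 1 region at 15.1, 2796 bp upstream, with no replicate summit within 100 bp. This was 1 of 3 member regions with no summit of either replicate within 100 bp, beside 1 at glr-4 and 1 at tph-1. Each of the 3 overlapped a replicate region. The nearest replicate summit was 107 bp away at ace-2, 144 bp at glr-4 and 161 bp at tph-1.

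Among the muscarinic-type receptor genes, gar-2 had 5 joint-list regions. The regions scored 19.2, 19, 16.6, 13.2 and 12.6, and the 19 region, in an intron 1790 bp from a start, was the one found in both replicates. The 19.2 and 19 regions lay in introns and the 16.6 region lay 490 bp upstream of the first start. Replicate 1 gave gar-2 9 regions (best score 9.86) and replicate 2 gave it 6 (best score 13.4, rank 1735). gar-3 had regions at 15.5, 14.4 and 12.9, the first 74 bp inside a start, and the 15.5 and 14.4 regions were found in both replicates. gar-1 had no joint-list region, and its best scores were 4.75 in replicate 1 and 7.39 in replicate 2.

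Of the nicotinic receptor subunits, unc-63 had the highest region. unc-63, unc-38 and unc-29 encode subunits of the levamisole-sensitive receptor of body wall muscle. The unc-63 region, with its summit 1585 bp upstream at position 5140088 of chromosome I, scored 23.9 and ranked 817. Replicate 1 held it at 10.6 (rank 1240) and replicate 2 at 13.1 (rank 1942), so it was placed high in each list. Further unc-63 regions scored 16.4, found in replicate 2, and 13, 11 bp inside the start and found in both replicates. unc-29 had 1 region at 14.8 found in both replicates, with a replicate 1 score of 3.61 close to the bottom of that list and a replicate 2 score of 10.7. unc-38 had 1 region at 14.1, found in replicate 2. For the motor neuron subunits, acr-2 had 1 region at 14, found in replicate 2, and its best replicate 1 region, 397 bp upstream of the start, scored 10.6 with rank 1230. acr-12 had no joint-list region and best scores of 3.84 in replicate 1 and 7.34 in replicate 2.

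Glutamate genes had 3 joint-list regions at 2 genes. eat-4 encodes the vesicular glutamate transporter, whose presence defines glutamatergic neurons. It had no joint-list region and no region in replicate 1, and 3 regions in replicate 2 with a best score of 9.93 (rank 5820). glr-2, a subunit of the AMPA-type receptors, had 1 region at 17 in a coding exon, found in both replicates at 6.24 in replicate 1 and 6.08 in replicate 2. glr-4, another ionotropic receptor subunit, had a region at 12.7 found in both replicates and another at 12.6 with no replicate summit within 100 bp. Both glr-4 regions lay upstream, 2878 bp and 1335 bp from the start.

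The other ionotropic glutamate receptor genes had no joint-list region. They are glr-1 and glr-3, the NMDA-type subunit genes nmr-1 and nmr-2, and the glutamate-gated chloride channel genes avr-14, avr-15 and glc-1. Among all 45 members, glr-3 was the single gene with no region in either replicate list (2.22%), against 21.9% of all genes. glr-1 had 1 replicate 1 region at 3.60, next to the bottom of the list, and none in replicate 2. A joint-list region inside the glr-1 body scored 14.5 and was found in both replicates, but it lay nearer to the start of doxa-1 and was given to that gene. The best scores of this class in the replicates were 8.78 at glr-4 and 7.78 at avr-15 in replicate 1, and 9.93 at eat-4 and 8.55 at nmr-1 in replicate 2.

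Monoamine genes differed within the synthesis pathway. cat-2, which encodes tyrosine hydroxylase and makes the dopamine precursor, had a region at II:259360-259743 that scored 22.9 and ranked 933. Its summit lay in a coding exon, 1155 bp inside a start, and the position is also within the body of the cohesin-loading gene scc-2. Replicate 1 held it at 11.3 (rank 917), and the nearest replicate 2 summit was 107 bp away, just outside the limit of 100 bp. A further cat-2 region scored 12.5 and was found in replicate 1. tph-1, which encodes tryptophan hydroxylase for serotonin, had 1 region at 12.5 (rank 9288) with no replicate summit within 100 bp. The nearest, in replicate 1, was 161 bp away. bas-1, the aromatic amino acid decarboxylase gene shared by the dopamine and serotonin pathways, had no joint-list region, and neither did tdc-1 and tbh-1, the genes for tyramine and octopamine synthesis.

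Transport genes of this class were also divided. cat-1, the vesicular monoamine transporter gene, had 1 intronic region at 14.9 (rank 4845) found in both replicates, at 4.15 in replicate 1 and 8.90 in replicate 2. mod-5, the serotonin reuptake transporter gene, had regions at 16.5, 550 bp upstream and found in both replicates, and at 12.2, found in replicate 1. dat-1, the dopamine transporter gene, had no joint-list region, with 2 replicate 1 regions (best score 8.56) and none in replicate 2.

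Monoamine receptors had joint-list regions in 5 of 6 cases, dop-1 being the exception, against 30.8% of all genes. Of these receptor genes dop-1, ser-1 and ser-4 have territories of 12781, 12261 and 10000 bp, and of all genes with 10000 bp or more 75.7% had a region. ser-1, a serotonin receptor gene, had a region at 20.6 (rank 1302), 777 bp upstream of a start and found in both replicates, and another at 15.9 found in replicate 2. The replicate 1 summit for the first, at 12.5 and rank 613, was the highest-placed member region of that list. mod-1, the serotonin-gated chloride channel gene, had 1 region at 17.3, 2329 bp upstream and found in both replicates, and its best replicate 2 region scored 13.6 (rank 1660). dop-3, a dopamine receptor gene of the class that inhibits adenylyl cyclase, had regions at 16.9 and 13.8 that were found in replicate 2 alone, and no region in replicate 1. ser-4, a serotonin receptor gene, had regions at 14.4, found in replicate 1, and 12.6, found in replicate 2. dop-2 had 1 region at 12.6, found in replicate 1. dop-1 had 7 regions in replicate 1 (best score 8.83) and 6 in replicate 2 (best score 9.94) over a territory of 12781 bp, and none in the joint list.

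**Figure D3:**
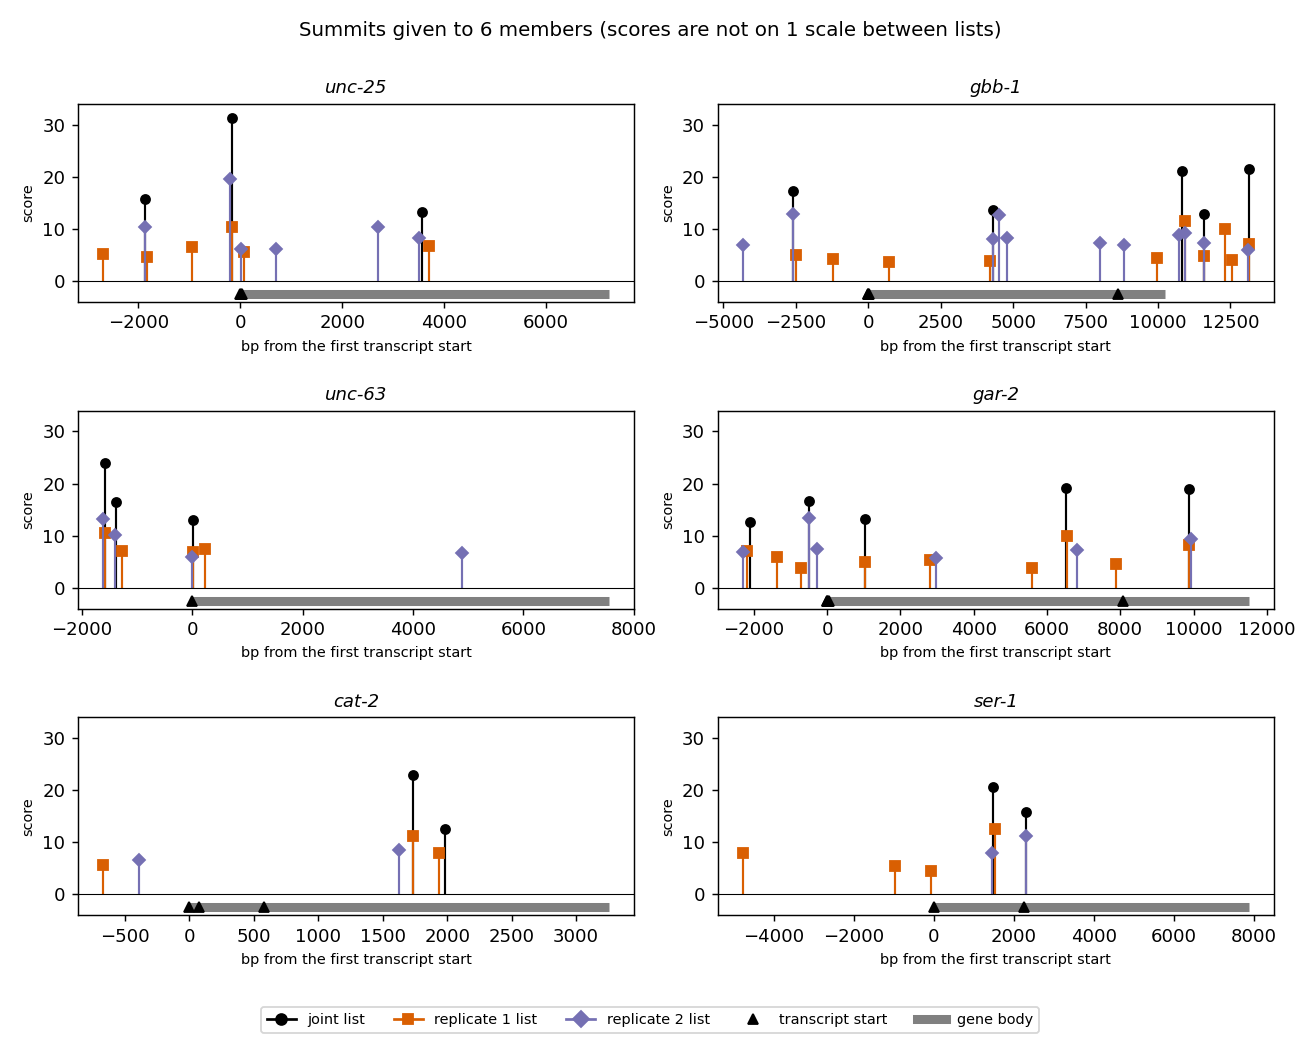
Summits given to unc-25, gbb-1, unc-63, gar-2, cat-2 and ser-1, with distance from the gene's first transcript start in bp on the horizontal axis (gene direction left to right) and the score of each list on the vertical axis. Symbols mark the joint, replicate 1 and replicate 2 lists, the grey bar the gene body and triangles the transcript starts; the joint summit of unc-25 at 31.4 lies just left of its start, while the highest gbb-1 summits, at 21.6 and 21.1, lie beyond the gene body.

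In the separate replicate lists, which include more background, most genes had a region. Replicate 1 gave a region to 39 of 45 members (86.7%, interval 73.2 to 94.9), against 63.9% of all genes, and replicate 2 to 37 of 45 members (82.2%, interval 67.9 to 92.0), against 59.1% of all genes. Both lists gave a region to 32 of 45 members (71.1%, interval 55.7 to 83.6), against 44.8% of all genes. By class these were 12 of 13 acetylcholine, 10 of 14 monoamine, 5 of 8 GABA and 5 of 10 glutamate genes. The order of the classes differed between the lists: in replicate 1 it was acetylcholine (100%), monoamine (85.7%), glutamate (80.0%) and GABA (75.0%), and in replicate 2 acetylcholine (92.3%), GABA (87.5%), monoamine (85.7%) and glutamate (60%). The members' median best score was 7.78 in replicate 1 and 9.58 in replicate 2, against 6.07 and 8.64 over all genes with a region in the same lists. What longer territories contribute to these medians was not tested. Per 100 kb of territory the members held 41.8 regions in replicate 1 and 33.7 in replicate 2, against 30.1 and 26.4 over all genes. Fewer summits were shared than genes: 24 of the members' 134 replicate 1 regions had a replicate 2 summit within 100 bp (17.9%, interval 11.8 to 25.5), against 14% of all regions given to a gene.

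**Figure D4:**
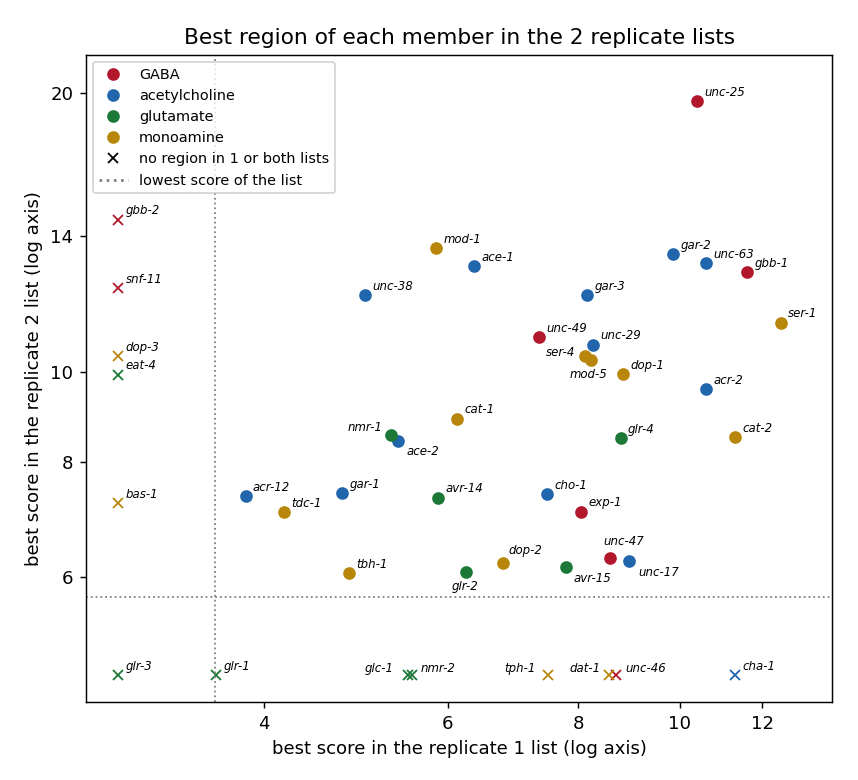
Best score of each member in replicate 1 (horizontal, log axis) and replicate 2 (vertical, log axis), coloured by transmitter class; crosses mark members with no region in 1 or both lists, and dotted lines mark the lowest scores of the lists, 3.59 and 5.71. unc-25, at 10.4 and 19.6, stands apart at the top, gbb-2, snf-11, dop-3, eat-4 and bas-1 lack a region in replicate 1 alone, and glr-3 lacks a region in both.

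Replicate support was asked of each joint-list region, as a summit of the replicate list within 100 bp. A summit counted whatever its score. In replicate 2 some lay near the lowest score of 5.71, as at gbb-1 (5.88), unc-63 (5.84), glr-4 (6.06), glr-2 (6.08) and mod-5 (6.17). Of the 46 member regions, 19 were found in both replicates (41.3%, interval 27.0 to 56.8), against 35.6% of the 9209 joint-list regions given to any gene. This share was near the background. By class, 6 of 10 GABA, 7 of 19 acetylcholine, 2 of 3 glutamate and 4 of 14 monoamine regions were found in both. Replicate 1 held 30 of the 46 (65.2%), against 56.2% of all, and replicate 2 held 32 (69.6%), against 73.2% of all. Support went with score: of member regions above the list's median score 14 of 23 were found in both replicates (60.9%), against 50.3% of all such regions, and of those at or below it 5 of 23 (21.7%), against 20.9% of all. The joint list was made from the same alignments as the replicate lists, so its score and this support are not independent. Counted by gene, 14 of 45 members had a joint-list region found in both replicates (31.1%, interval 18.2 to 46.6), against 13.6% of all genes. The members also held more joint-list regions per gene, 46 over 45 genes against 9219 over 19973. The part this plays in the share by gene was not tested. These 14 were unc-25, gbb-1 and unc-49 for GABA, ace-1, gar-2, gar-3, unc-29 and unc-63 for acetylcholine, glr-2 and glr-4 for glutamate, and cat-1, mod-5, mod-1 and ser-1 for monoamines.

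The members' regions lay farther from starts than those of other genes. Summits of the 46 member regions lay a median of 1762 bp from a start, against 1053 bp for all regions given to a gene. In the promoter window, 1000 bp upstream to 100 bp downstream of a start, lay 9 member regions (19.6%, interval 9.36 to 33.9), against 33.8% of all. Intergenic positions outside that window held 16 (34.8%, interval 21.4 to 50.2), against 20.7% of all, introns 15 (32.6%), against 29.4%, and coding exons 5 (10.9%), against 10.2%. The promoter regions of the members were at unc-25, unc-49, cha-1, gar-2, gar-3, unc-63, mod-5 and ser-1, the last with 2. Upstream of the start lay 43.5% of the member regions, against 52.8% of all. Another gene's start lay within 5000 bp of the summit for 17 of the 46. The part that longer territories play in these positions was not tested.

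**Figure D5:**
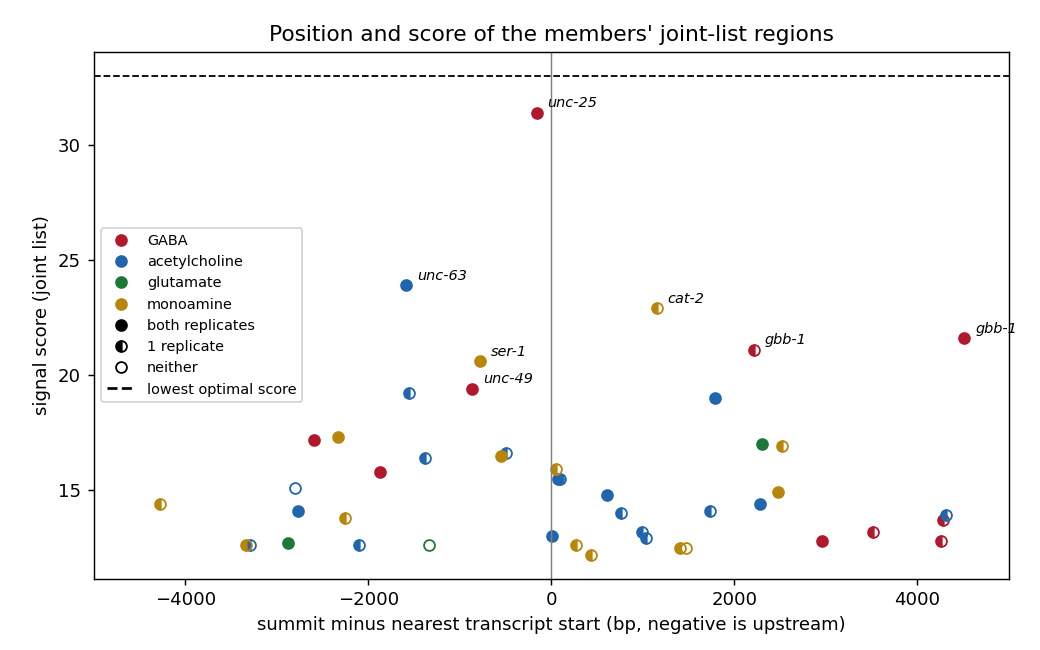
Distance of each joint-list summit from the nearest transcript start of its gene (horizontal axis, bp, negative upstream) and its signal score (vertical axis, joint list) for the 46 member regions, coloured by class and filled by replicate support. The region at unc-25, 159 bp upstream, is the highest at 31.4, and regions at unc-63, cat-2, gbb-1, ser-1 and unc-49 follow between 19.4 and 23.9 at 777 to 4514 bp from a start.

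The limit of 5000 bp and the rule of the nearest start left some regions in member bodies with other genes or with none. The outermost member region inside the limit lay 4514 bp from a gbb-1 start, and the nearest outside it, in the ser-1 body, lay 5230 bp from a ser-1 start. In all, 10 joint-list regions in the bodies of 9 members were not given to that member, and of these 9 members glr-1 was the 1 with no other joint-list region. An optimal region, II:255223-255606, scored 35.4 (rank 290) and lay 2404 bp from a cat-2 start. It was given to scc-2, whose start was 219 bp away, and it was the single optimal region within 5000 bp of a member's start.

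By chromosome, members with a joint-list region were 6 of 10 on X, against 39.9% of all genes there, 5 of 10 on III, against 34.9%, and 5 of 7 on I, against 32.8%. On II they were 3 of 6, against 27.7%, on IV 3 of 4, against 31.7%, and on V 3 of 8, against 23.9%. The members' share was thus above that of all genes on each of the 6 chromosomes, from small counts. X carried 13 of the 46 regions, 5 of them at gbb-1, and III carried 12, 5 of them at gar-2.

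Other genes of the same pathways, 79 with gene models here, also had a joint-list region more often than genes at large. Further receptor subunits, transporters and enzymes had no optimal region in 79 genes and a joint-list region in 37 (46.8%, interval 35.5 to 58.4), against 30.8% of all genes. By class these were 14 of 18 monoamine (77.8%, interval 52.4 to 93.6), 16 of 37 acetylcholine (43.2%, interval 27.1 to 60.5), 2 of 6 GABA (33.3%, interval 4.33 to 77.7) and 5 of 18 glutamate genes (27.8%, interval 9.69 to 53.5). Glutamate was again the lowest class, while the acetylcholine genes did not show the high share of the 13 listed ones. Per 100 kb of territory these genes held 9.03 joint-list regions (interval 6.68 to 11.9), against 10.1 over all genes, so their higher share per gene was not seen per length. The 4 highest scores were 25.1 at lgc-53, a monoamine-gated channel gene, 21.2 at the GABA-gated channel gene lgc-35, 20.8 at the nicotinic subunit gene acr-6 and 18.7 at sol-1, an auxiliary subunit gene of AMPA-type receptors. Each of the 4 regions was found in 1 replicate.

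Short DNA words were sought within 50 bp of the summits on both strands. CACCTG, the word that vertebrate ZEB proteins bind, was in 0 of 46 member regions, which with an exact interval allows a share of up to 7.71%, against 1.88% of all nuclear joint-list regions and 2.06% of the optimal ones. At those background shares a count of 0 in 46 is near the rest of the list. GAGAGA was in 6 of 46 (13%, interval 4.94 to 26.3), against 8.98% of all joint-list regions and 38.6% of the optimal regions. The 6 regions were at gbb-2, gar-3, unc-63 and dop-2, with 2 each at gar-3 and unc-63. A match is a description of sequence only. The windows at gar-3, gbb-2 and dop-2 are shown on the strand of the gene with the word in capitals; at dop-2 it is read as TCTCTC, the same word on the other strand.
gar-3, V:14576745-14576845, minus strand, intron: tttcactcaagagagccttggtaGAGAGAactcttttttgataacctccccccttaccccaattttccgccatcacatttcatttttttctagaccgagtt
gbb-2, IV:4502436-4502536, minus strand, intron: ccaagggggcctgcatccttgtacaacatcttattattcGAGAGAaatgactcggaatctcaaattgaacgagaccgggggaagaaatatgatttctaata
dop-2, V:9605167-9605267, plus strand, upstream: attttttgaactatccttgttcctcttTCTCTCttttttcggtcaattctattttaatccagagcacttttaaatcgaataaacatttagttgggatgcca
The median GC content of the windows was 34.7% for the 46 member regions, against 33.7% for all joint-list and 49.5% for the optimal regions. The members' median GC content was closer to that of the joint list than to that of the optimal set.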

How the data were processed

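ZAG-1 ChIP-seq was analysed from 4 region lists in the ce11 build (WBcel235). Each replicate list was made from that replicate's alignment and a control, the joint list from both alignments, and the optimal set from these by IDR, per the notes deposited with the lists. Which aligner and caller were used, and at what IDR threshold, is not given in the sources used here. Reads of the control were not analysed here. The authors deposited a signal score per region, made relative to the control and without scaling across lists. They also deposited a −log10 q-value, used here only to describe. The replicate and joint lists include background on purpose.

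Regions were given to the nearest protein-coding start (Ensembl release 115) within 5000 bp of the summit. The nuclear genome alone was used. Coordinates are 1-based. The members, the gene lists and the words were chosen with earlier results of these data known, so counts are given beside all genes with no test. All 45 members could be named; each member with a joint-list region, the enzymes and vesicular transporters that define a class, the 2 highest per class in each replicate list and the 4 highest other pathway genes are named. Of 82 other pathway symbols 79 matched a gene. Territory is the length nearest to a gene's start and within 5000 bp of it. The assignment was tested on simulated data. Alternatives covered the window, the assignment, the list and the match distance. The tools were SciPy 1.17.1, NumPy 2.4.6 and matplotlib 3.10.9 under Python 3.11.15.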

Additional observations from a re-analysis of the deposited data

How the results depend on the processing

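Of 74 values recomputed under other settings, 52 stayed within the limits set for them and 22 moved. With starts within 2000 bp and 1000 bp, 15 and 11 members had a joint-list region (33.3% and 24.4%, against 25.4% and 18.9% of all genes). With the nearest start of any biotype 16 had one (35.6%, against 24.7%), and among the 5000 highest joint-list regions 16 (35.6%, against 17.5%). With regions found in both replicates only, a setting added after the data were seen, 14 had one (31.1%, against 13.6%). Giving regions to every start within 5000 bp gave 1 member, cat-2, an optimal region and 30 a joint-list region (66.7%, against 58.3% of all genes), with a glutamate share of 50%, so members and all genes, and the classes, lay closer together than in the report. At 1000 bp the acetylcholine, monoamine and glutamate shares were 46.2%, 21.4% and 0%; the glutamate share was also 0% with any biotype, and the acetylcholine share 46.2% among the 5000 highest. Members with a region in both replicate lists numbered 20 at 1000 bp and 8 among the 5000 highest of each list. The share of all genes was not computed for these settings, so whether these counts exceed the background cannot be told. Among the 5000 highest the members held 7.18 regions per 100 kb, against 5.04 over all genes. Without a replicate the median best score was 8.56 to 10.9, on the scale of the remaining list, and 23 to 27 members had a region (51.1% to 60%, against 31.1% to 31.6% of all genes). GABA was then the highest class, at 62.5% to 75.0%, with acetylcholine at 53.8% to 69.2%. Support in both replicates was 26.1% at 50 bp, 58.7% at 200 bp, 65.2% with 1 bp of overlap and 4.35% among the 5000 highest, against 22.3%, 50.4%, 59.0% and 6.91% of all regions; support in a single replicate was 65.2% to 69.6%. The causes were not tested. The members' share with a joint-list region was above that of all genes in each of these windows and assignments. No intervals were computed for these shares outside the main setting. With 11 to 30 of 45 members, whether they exceed the background there cannot be told.

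No paired analysis was possible because both replicates form 1 group and no test was run. Read depth is unknown, scores have no error, and classes of 8 to 14 genes give wide intervals.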
